A study of Homo sapiens with 4 samples.

Results

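Transcripts that are well known to be edited by adenosine deaminases acting on RNA were followed in NK-92 cells with and without a hairpin against ADAR1. They were chosen by name, as AZIN1, BLCAP, COPA, COG3, NEIL1, CYFIP2, FLNA, CCNI, CDK13 and CTSS, and each matched 1 Ensembl identifier, so that they are 10 of the 20323 genes in the deposited table. RNA had been sequenced in 4 libraries of NK-92, a human natural killer cell line grown in suspension with interleukin 2. The 2 NK scramble libraries came from cells transduced with a lentiviral control hairpin and the 2 NK shADAR1 libraries from cells transduced with a lentiviral hairpin against ADAR1, and both groups therefore carry a hairpin vector. The study describes the libraries of a group as biological replicates. It names its hairpins shADAR1-1 and shADAR1-2 and gives shADAR1-2 for the sequenced cells, whereas the sample labels use the same numbers for the libraries, which were read here as replicate numbers. The deposited values are amounts of RNA per gene and hold no base calls, so that how much of each transcript was edited was not measured here.

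Adenosine deaminases acting on RNA bind double-stranded RNA and convert adenosine to inosine, which ribosomes and sequencers read as guanosine. ADAR1, encoded by ADAR, and ADAR2, encoded by ADARB1, are the active enzymes. When the adenosine lies in a codon, the edit can exchange an amino acid, which is called recoding, and the site usually pairs with a nearby intron or exon sequence. When it lies in inverted Alu repeats of a 3′ UTR, the protein is unchanged but the fate of the mRNA can differ. The sites of AZIN1 and NEIL1 are known mainly as substrates of ADAR1, those of FLNA and CYFIP2 mainly as substrates of ADAR2, and CTSS is edited by ADAR1 in the Alu repeats of its 3′ UTR.

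The coding sequence around 8 of the recoding sites is shown so that the adenosine that is edited can be seen. Each sequence was read 5′ to 3′ on the strand of the spliced transcript from GENCODE release 29 (GRCh38), with the edited adenosine in capitals and up to 12 bases on either side. The genome build of the deposited table is not given in the sources used here.
BLCAP: atgtAttgcctccagtg
CCNI: agtcttttggatAggtttttagcta
CDK13: caggagggcggcAgaagcggcgtcg
COPA: cgcgtttgggatAtttctggtctga
COG3: accattaaggaaAtttccctggacc
NEIL1: agttggggggcaAaggctacgggtc
FLNA: tttctagccttcAggagtcagggct
CYFIP2: gccagatacattAagaccagtgctc

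Each of these adenosines lies in a coding exon. In BLCAP, a small protein first found as a gene lost in bladder cancer, the site is on the minus strand of chromosome 20 at 37519170, in exon 2 of BLCAP-209, and lies directly after the start codon, where the edit exchanges a tyrosine for a cysteine. In CCNI, which encodes cyclin I, it is on the minus strand of chromosome 4 at 77058527 in exon 3 of 7, and an arginine becomes a glycine. In CDK13, a kinase of RNA polymerase II, it is on the plus strand of chromosome 7 at 39950949 in exon 1 of 14, and a glutamine becomes an arginine. Both transport genes carry an isoleucine to valine edit. In COPA it is at 160332454 on the minus strand of chromosome 1 in exon 6 of 33, and in COG3 at 45516236 on the plus strand of chromosome 13 in exon 17 of 23. The site of NEIL1 at 75353745 on the plus strand of chromosome 15, in exon 6 of 10, exchanges a lysine for an arginine. The site of FLNA at 154351582 on the minus strand of chromosome X, in exon 43 of 48 of FLNA-202, exchanges a glutamine for an arginine. The site of CYFIP2 at 157309800 on the plus strand of chromosome 5, in exon 10 of 32, exchanges a lysine for a glutamate. In COPA, NEIL1 and FLNA the sequence shown runs across an exon junction. The other 2 genes are AZIN1 (chr8:102826357-102893864, minus strand), where the recoding edit exchanges a serine for a glycine, and CTSS (chr1:150730196-150765957, minus strand).

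The libraries held 37881704 to 39960491 estimated counts each, and 11810 genes passed the filter on low counts. Counts were scaled by the TMM method of edgeR to CPM, counts relative to the effective size of each library, and p-values from its quasi-likelihood fit were adjusted by Benjamini-Hochberg over the 11810 genes. Values of a group are given as replicate 1 and then replicate 2 throughout. The targeted gene, ADAR, had 655 and 682 CPM in the control libraries, beside 575 and 482 CPM under shADAR1. Both NK shADAR1 libraries were thus below both NK scramble libraries, with a log2 fold change of -0.34 (95% interval -0.79 to 0.11) that did not pass the test (edgeR adjusted p = 1.00). It ranged from -0.47 without NK shADAR1 replicate 1 to -0.22 without NK shADAR1 replicate 2. ADARB1, named outside the rule for named genes, had 245 and 282 CPM under the scramble hairpin, while NK shADAR1 cells were at 285 and 266 CPM, with overlapping groups. As a check of the cell type, all 12 NK cell markers passed the filter, with NCAM1 at 573 to 695 CPM and NKG7 at 1326 to 1641 CPM. Of 6 T cell markers, CD3E stood at 533 to 778 CPM and the other 5 were under 1 CPM in every library, with CD8A and CD8B at 0. B cell and monocyte markers summed to 0.611 to 2.47 CPM and 1.37 to 2.46 CPM.

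The amount of RNA did not pass the test of a difference for any of the edited transcripts. All 10 passed the filter, and 0 of 10 reached both an edgeR adjusted p under 0.05 and a 1.5-fold change, where 0.0% of all tested genes did. At an unadjusted p under 0.05 there were also 0 of 10, against 2.48% of tested genes (1.7% higher and 0.779% lower). DESeq2 gave 0 of 10 both ways, with 0.0% and 1.85% of its genes. The study reports differentially expressed genes between these groups with DESeq2 at the same thresholds, whereas no gene passed here with either tool. The reason for this difference was not tested. Of the 10, 5 had a higher and 5 a lower mean estimate in NK shADAR1 cells, and their median log2 fold change was -0.0023, beside 2.76e-05 over all tested genes. Both NK shADAR1 libraries lay on 1 side of both NK scramble libraries in 2 of 10 members, AZIN1 and CTSS, which were lower. Among all tested genes 26.0% were separated in this way, so that the share of members was close to the background. In 8 of 10 members, the larger of the 2 ratios between replicates of a group exceeded the ratio between the group means. The share of all tested genes for this was not computed, so that it is not a result about the members. When a library was left out, 0 of 10 members passed the threshold in each case, but 4 to 9 were separated, where 60.2% to 67.4% of all genes then were. They were 4 without NK scramble replicate 2 or NK shADAR1 replicate 1, 7 without NK scramble replicate 1 and 9 without NK shADAR1 replicate 2. In bulk RNA, fewer cells with a transcript and less of it per cell cannot be told apart.

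**Figure D1:**
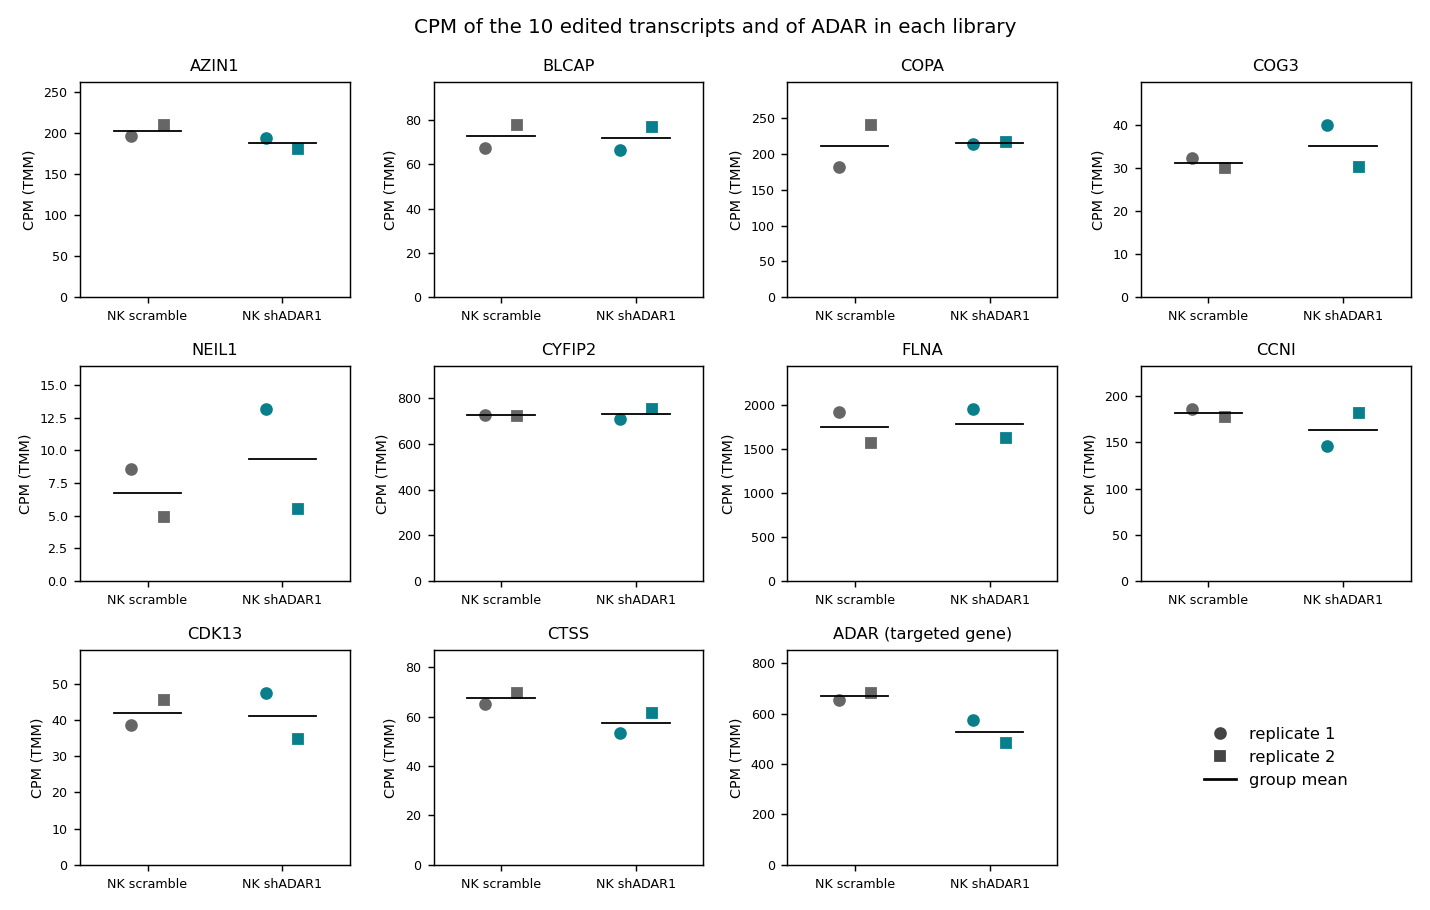
CPM (TMM-scaled, axes from 0) of the 10 edited transcripts and of ADAR in the 2 NK scramble (grey) and the 2 NK shADAR1 libraries (teal), with bars at the group means. Groups overlap in 8 members, while AZIN1, CTSS and ADAR are lower in both NK shADAR1 libraries.

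AZIN1, the antizyme inhibitor that protects ornithine decarboxylase and so sustains polyamine synthesis, is the best known recoded target of ADAR1 outside the brain. It had 196 and 210 CPM with the scramble hairpin, against 194 and 181 CPM with shADAR1. NK shADAR1 cells were lower in both libraries, but the nearest pair across the groups lay closer together than the replicates of either group. The group means were 203 ± 9.60 and 188 ± 9.46 CPM (SD, n = 2). Its log2 fold change was -0.11, with a 95% interval of -0.53 to 0.30. Among 12 tested genes of polyamine synthesis and its antizymes, 3 were higher, 9 lower and 0 past the threshold, with a median log2 fold change of -0.09. The gene with the largest change was SAT1, which acetylates spermidine and spermine, at 24.7 and 20.4 CPM in the control libraries, beside 11.5 and 17.8 CPM under shADAR1. Its log2 fold change of -0.62 (standard error 0.26) did not pass the test (edgeR adjusted p = 1.00) and lay between -0.97 and -0.34 with 1 library left out. SAT1 was the 1 gene of its list with an unadjusted p under 0.05, where 2.48% of all tested genes had one.

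NEIL1, a DNA glycosylase that removes oxidized bases, varied most of the 10. It had 8.57 and 4.89 CPM under the scramble hairpin, while NK shADAR1 cells were at 13.1 and 5.49 CPM. The libraries of NK shADAR1 differed 2.40-fold from each other and those of NK scramble 1.75-fold, more than the 1.39-fold ratio of the group means. The log2 fold change was 0.47, and its 95% interval ran from -0.44 to 1.38. It was -0.29 without NK shADAR1 replicate 1 and 0.96 without NK shADAR1 replicate 2, so that its direction depended on a single library. NEIL1 was the member with an unadjusted p under 0.05 when NK shADAR1 replicate 2 or NK scramble replicate 1 was left out, where 5.69% and 3.80% of genes then had one. NEIL1 was also the 1 member whose estimated counts were not whole numbers, which for the other 9 they were in all 4 libraries, with no fractional part. Of all listed genes, 87.1% to 87.9% had whole counts in a library. Its exons share 1831 bases with those of MAN2C1, an alpha-mannosidase gene on the opposite strand, which had 46.4 and 46.2 CPM with the scramble hairpin, against 58.0 and 50.7 CPM with shADAR1. Reads from the pair cannot be told apart without strand, and whether the counting used strand is not given in the sources used here. Among 14 other tested genes of base excision repair, 7 were higher, 7 lower and 0 past the threshold, with a median of -0.0067. The largest change there was that of OGG1, the glycosylase for oxidized guanine, with a log2 fold change of 0.31 (standard error 0.22).

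BLCAP, whose transcript overlaps the imprinted gene NNAT, had 67.6 and 77.6 CPM in the control libraries, beside 66.6 and 77.0 CPM under shADAR1. Each group held a low and a high library at almost the same levels, and the log2 fold change was -0.02 (95% interval -0.46 to 0.43). NNAT, which encodes neuronatin and shares 85 exonic bases with BLCAP on the opposite strand, was at 0.280 to 0.723 CPM. CCNI had 186 and 177 CPM under the scramble hairpin, while NK shADAR1 cells were at 145 and 182 CPM. One NK shADAR1 library was lower than the other 3, and without it the log2 fold change moved from -0.15 to 0.0020. CDK13 had 38.4 and 45.4 CPM with the scramble hairpin, against 47.4 and 34.8 CPM with shADAR1. The NK shADAR1 libraries were its highest and its lowest, with a log2 fold change of -0.03 (95% interval -0.52 to 0.46). Its paralog CDK12 stood at 116 and 146 CPM in the control libraries, beside 139 and 116 CPM under shADAR1. Among 7 tested atypical cyclins and partners of CDK13, 5 were higher, 2 lower and 0 past the threshold, and the largest change was that of CCNL1, a cyclin linked to splicing, with a log2 fold change of 0.37 (standard error 0.24).

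COPA and COG3 serve transport at the Golgi. COPA is the alpha subunit of the COPI coat, which carries cargo back from the Golgi to the endoplasmic reticulum, and had 181 and 240 CPM under the scramble hairpin, while NK shADAR1 cells were at 213 and 217 CPM. Its NK shADAR1 libraries fell between the NK scramble libraries, and the log2 fold change was 0.03 (95% interval -0.43 to 0.49). Exons of COPA share 129 bases with NCSTN, the nicastrin gene on the opposite strand, which was at 76.5 to 83.2 CPM. Among 8 other tested genes of the coat, 3 were higher, 5 lower and 0 past the threshold. COPB1, another subunit of the coat, had the largest change, at 105 and 77.3 CPM with the scramble hairpin, against 120 and 114 CPM with shADAR1, with a log2 fold change of 0.36 (standard error 0.21). COG3, a subunit of the oligomeric complex that tethers vesicles to the Golgi, had 32.3 and 29.9 CPM in the control libraries, beside 39.9 and 30.3 CPM under shADAR1. A single NK shADAR1 library was higher than the rest, and the log2 fold change of 0.17 (95% interval -0.30 to 0.65) became -0.04 without it. Of the 7 other subunits, 6 were higher and 1 lower, and 0 passed the threshold. Their median log2 fold change was 0.11, and the largest fold change was that of COG6, at 0.31 on the log2 scale (standard error 0.21).

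FLNA and CYFIP2 act on actin. FLNA, filamin A, crosslinks actin filaments and anchors membrane receptors, and had 1931 and 1570 CPM under the scramble hairpin, while NK shADAR1 cells were at 1958 and 1629 CPM. As in BLCAP, each group held a high and a low library, with ratios of 1.23 and 1.20 within the groups against 1.02 between their means. The log2 fold change of FLNA was 0.03 (95% interval -0.46 to 0.53). CYFIP2 is a subunit of the WAVE regulatory complex, through which Rac starts new actin branches. It was the member with the least spread, at 727 and 721 CPM in the control libraries, beside 709 and 752 CPM under shADAR1, a range of 1.06-fold over all libraries. The log2 fold change was 0.01, with a 95% interval of -0.43 to 0.45. CYFIP1, its paralog, was at 1.58 to 3.41 CPM. Among 9 other tested genes of the complex and its Rac proteins, 7 were higher, 2 lower and 0 past the threshold, and CYFIP1 had the largest change, with a log2 fold change of 0.35 (standard error 0.46).

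CTSS, the lysosomal protease cathepsin S, is the member known for editing outside the coding sequence. It had 65.2 and 69.6 CPM under the scramble hairpin, while NK shADAR1 cells were at 53.5 and 61.5 CPM. Both NK shADAR1 libraries were lower, with group means of 67.4 ± 3.13 and 57.5 ± 5.67 CPM (SD, n = 2). The log2 fold change of -0.23 had a 95% interval of -0.67 to 0.21 and lay between -0.34 and -0.13 when 1 library was left out. That these values were below 0 follows largely from the separation of the groups and adds nothing to it. Among 11 other tested cathepsins, cystatins and CD74, 7 were higher, 4 lower and 0 past the threshold, with a median of 0.09. The largest change in this list was that of CTSB, with a log2 fold change of 0.29 (standard error 0.48), a gene at 1.45 to 3.45 CPM.

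**Figure D2:**
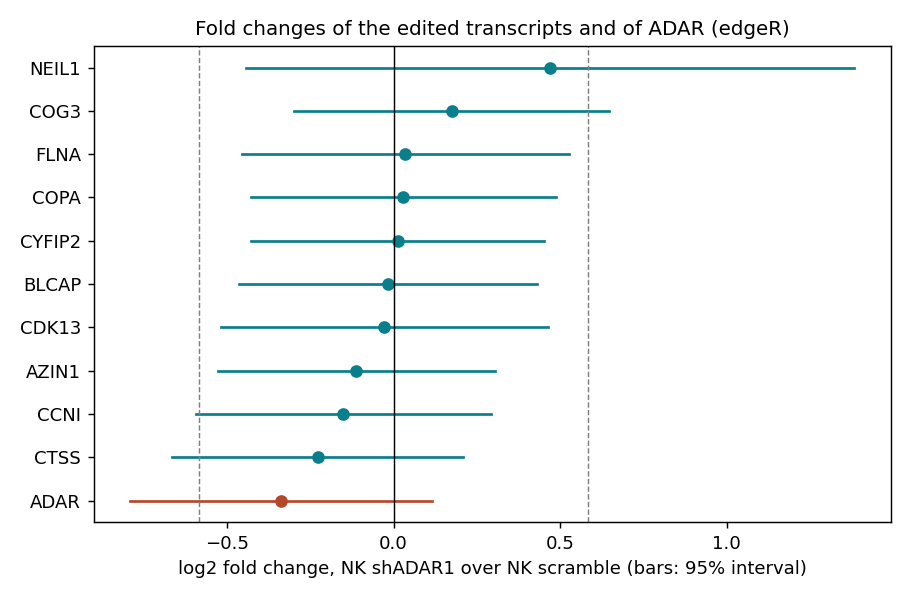
Log2 fold change of NK shADAR1 over NK scramble cells for each edited transcript (teal) and for ADAR (red), with 95% intervals from edgeR's quasi-likelihood fit and dashed lines at a fold change of 1.5 in either direction. Every interval holds 0, and those of AZIN1, BLCAP, COPA, CYFIP2, FLNA and CDK13 stay between the dashed lines.

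The intervals give the size of change that these libraries leave possible. All 10 held 0. In 6 of 10 members, AZIN1, BLCAP, COPA, CYFIP2, FLNA and CDK13, both ends were nearer to 0 than a 1.5-fold change. The share of all tested genes with such intervals was not computed, so that these members are not set apart from other genes. CCNI and CTSS allowed a larger decrease and COG3 a larger increase, and NEIL1 allowed an increase of up to 2.61-fold. The median size of the log2 fold change, with its sign removed, was 0.07 over the members and 0.15 over all tested genes. Those genes were not matched to the members in expression level.

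Levels of different genes were compared in FPKM, which divides by transcript length. FLNA was highest at 226 ± 34.9 FPKM (SD over the 4 libraries), followed by CYFIP2 at 147 ± 9.10 FPKM, and neither overlapped its neighbours. CCNI at 63.6, AZIN1 at 55.3 and COPA at 49.3 FPKM followed, and each overlapped the next in range. BLCAP at 36.4 and CTSS at 33.1 FPKM overlapped each other and stood below them. COG3 at 10.5, CDK13 at 8.22 and NEIL1 at 4.06 FPKM were lowest, and each again overlapped the next. Of the tested genes, 97.3% had a lower mean FPKM than FLNA, and 29.7% a lower one than NEIL1. FLNA and CYFIP2 were thus the most abundant members. The editing enzymes were at 49.5 to 63.3 FPKM for ADARB1 and 73.6 to 104 FPKM for ADAR. Abundance of the members was not compared by the enzyme that edits them.

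Some results differed between CPM and FPKM. AZIN1, separated in CPM, was not separated in FPKM, with 56.3 and 57.2 FPKM in NK scramble and 57.9 and 49.8 FPKM in NK shADAR1 cells. COG3, which overlapped in CPM, had 7.46 and 8.98 FPKM in NK scramble replicates 1 and 2 and 12.3 and 13.2 FPKM in NK shADAR1 replicates 1 and 2. Both NK shADAR1 libraries were higher in FPKM, with means of 12.8 ± 0.685 against 8.22 ± 1.07 (SD, n = 2), a ratio of 1.55, whereas the ratio of the CPM means was 1.13. With limma on log2(FPKM + 1) the log2 fold change was 0.58 (standard error 0.21) and did not pass after adjustment (limma adjusted p = 1.00), and COG3 was the 1 member with an unadjusted p under 0.05, where 2.46% of tested genes had one. In FPKM, 25.8% of tested genes were separated, and 2 of 10 members, COG3 and CTSS. The length by which the FPKM values divide was recovered as the estimated count over FPKM and library total. For COG3 it was 4370 and 3278 bases in NK scramble and 3378 and 2219 bases in NK shADAR1 replicates 1 and 2. The groups overlapped in this implied length, and their means had a ratio of 0.732, which was at the low end, with 0.906% of tested genes at or below it. COG3 has 2 annotated protein-coding transcripts, of 1809 and 4498 bases. The implied lengths fell between them, but most lengths would, and whether the use of isoforms differed was not tested.

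**Figure D3:**
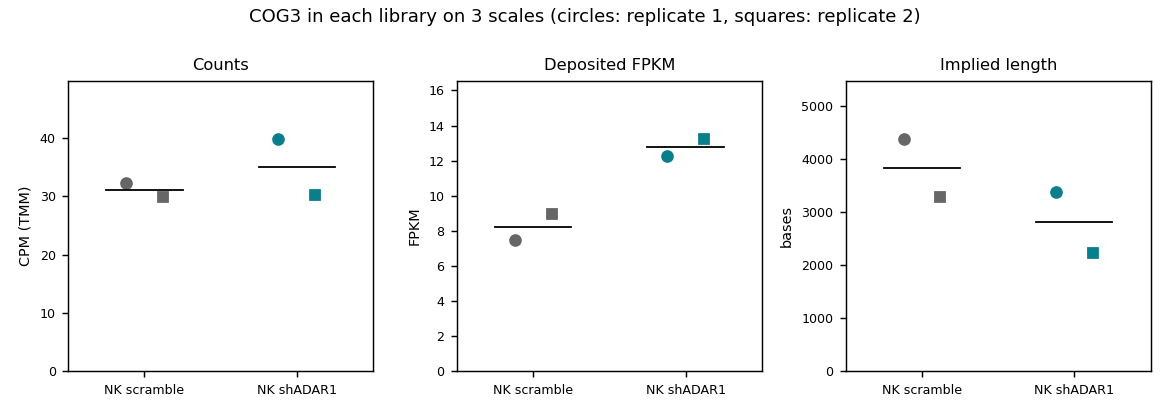
COG3 in the 4 libraries as CPM (left), as deposited FPKM (middle) and as the implied transcript length in bases (right), all axes from 0, with bars at group means. Counts overlap between the groups, FPKM values are higher in both NK shADAR1 libraries, and the implied length is shortest in NK shADAR1 replicate 2 at 2219 bases.

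The other members differed less in implied length. The longest over the shortest of the 4 libraries was 1.97 for COG3 and 1.59 for NEIL1, at or above 1.5 in 2 of 10 members and in 5.05% of tested genes, with a median of 1.06 over all genes. NEIL1 was at 2062 and 2042 bases in NK scramble and 1750 and 2778 bases in NK shADAR1 replicates 1 and 2, with the NK shADAR1 libraries on either side. The ratio was under 1.1 in 6 members and 1.01 in COPA. Implied length was separated between the groups in 2 of 10 members, COPA and CTSS, both shorter in NK shADAR1 cells, against 34.5% of tested genes. For COPA the difference was small, at 4340 and 4313 against 4299 and 4292 bases. For CTSS it was 2024 and 1889 against 1773 and 1844 bases, a ratio of 0.924, and annotated coding transcripts of CTSS range from 1421 to 4107 bases. The shorter length of CTSS offset its lower count only in part in FPKM, where its ratio was 0.926 against 0.853 for CPM. Isoforms were not measured separately in these files.

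**Figure D4:**
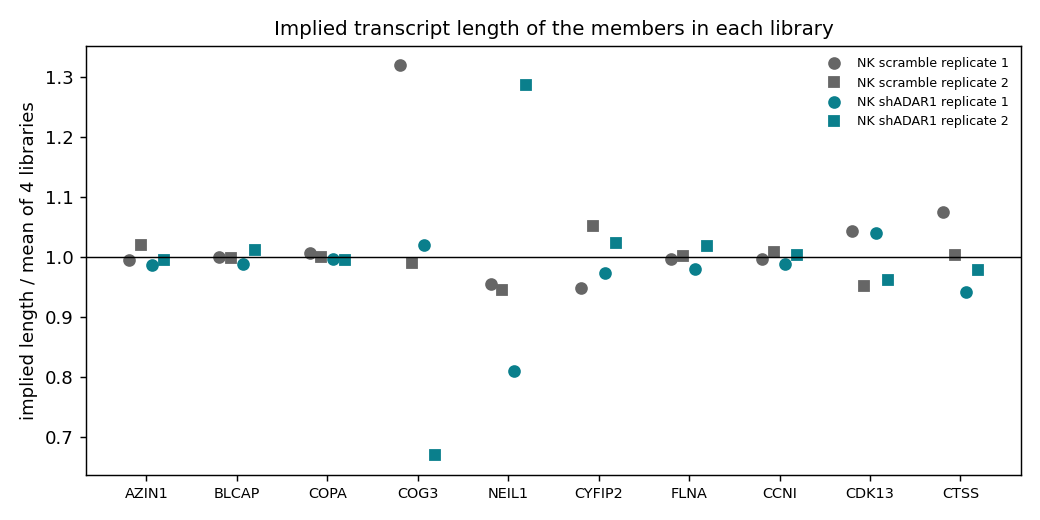
Implied transcript length of each edited transcript in each library, divided by its mean over the 4 libraries (grey, NK scramble; teal, NK shADAR1; circles, replicate 1; squares, replicate 2). COG3 and NEIL1 spread widely, by 1.97-fold and 1.59-fold from the shortest to the longest library, while COPA stays within 1.01-fold.

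Other transcripts known for editing were compared from lists of 20 recoded transcripts and 16 transcripts edited in the 3′ UTR, most of them known for edits in Alu repeats. The second list also holds CD38, which the study gives as a candidate with sites in its 3′ UTR, and whether these lie in Alu repeats was not tested. Most of the recoded list encodes receptors and channels of the brain, and only 8 of the 20 passed the filter, of which 3 were higher, 5 lower and 0 past the threshold. Their median log2 fold change was -0.09, and GLI1, a transcription factor of the hedgehog pathway, had the largest change at -0.80 (standard error 0.48) with 0.696 to 1.40 CPM. All 16 of the 3′ UTR list were tested, with 5 higher, 11 lower and 0 past the threshold, and a median of -0.05. In this list 5 were separated, 2 higher and 3 lower, where 13.3% of all tested genes were separated and higher and 12.6% separated and lower. CD38, an enzyme that consumes NAD+, had the largest change. It had 32.7 and 45.3 CPM with the scramble hairpin, against 21.0 and 26.6 CPM with shADAR1. Both NK shADAR1 libraries were lower, with a log2 fold change of -0.71 (standard error 0.23) that did not pass the test (edgeR adjusted p = 1.00). With 1 library left out it lay between -0.93 and -0.47. CD38 was the 1 gene of the list with an unadjusted p under 0.05, where 2.48% of all tested genes had one. SAT1 was likewise the 1 such gene of the polyamine list. The study reports lower CD38 from these libraries and chose CD38 on them, so that its place in the list is not independent evidence. Apart from them, it examined CD38 by Sanger sequencing of a site, flow cytometry and an mRNA stability assay. It also measured CD38 in NK cells of knockout mice and of patients with melanoma, and proposes CD38 as a potential substrate of ADAR1.

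**Figure D5:**
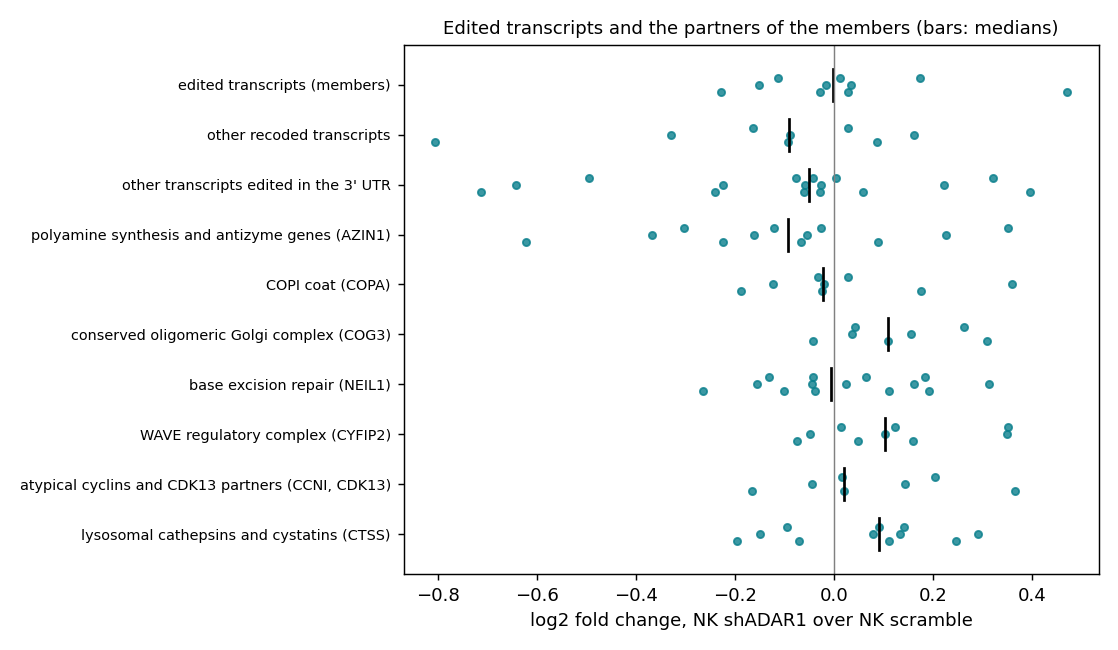
Log2 fold change of NK shADAR1 over NK scramble cells for each tested gene (points) of the edited transcripts, of the lists of other edited transcripts and of the lists of partners, with bars at the medians. Medians lie between -0.09 and 0.11, and the lowest points are GLI1, CD38, EIF2AK2 and SAT1.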

How the data were processed

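The authors enriched mRNA with oligo(dT) beads and sequenced it on an Illumina NovaSeq. The submitters' processing notes name fastp 0.18.0, and the aligner, counting program, genome build and annotation are not given in the sources used here. The deposited table holds estimated counts, not normalized, and FPKM values scaled by the authors for length and depth, for 20323 genes, of which 20301 matched a symbol.

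Estimated counts were rounded. The test used edgeR 4.0.16 under R 4.3.3: filterByExpr with a minimum count of 10, TMM scaling, and a quasi-likelihood F test of the group term alone. Standard errors are the log2 fold change over the square root of F, and 95% intervals use its total degrees of freedom. Alternatives were 2 other scalings (upper quartile, RLE), 2 other filters, DESeq2 1.42.0, a replicate block, each library left out, and limma 3.58.1 on log2(FPKM + 1) and log2(FPKM + 0.1). Scripts were tested on simulated data.

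Codons of the recoding sites came from general knowledge, and a site was kept where the GENCODE codon encodes the unedited residue and 1 A-to-G change gives the edited one. For FLNA, where the codon number fell at different positions by transcript, the longest coding sequence was used, a rule chosen after this was seen. The library kit (NEBNext Ultra) is not stated to mark strand.

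The rule named the 10 members, ADAR, genes past the threshold, the gene with the largest change in each list, and CYFIP1, CDK12 and NNAT. Genes named outside it were ADARB1, cell type markers, MAN2C1 and NCSTN for their overlap with members, and EIF2AK2 for its low value in a figure. The results of 1 further gene and its list are not reported here. Members and lists were chosen with earlier results of these data known. An exact permutation test of 2 against 2 libraries cannot reach a p under 0.05 and was not used.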

Additional observations from a re-analysis of the deposited data

How the results depend on the processing

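In all 12 alternatives that refit the model, 0 of 10 members passed the threshold. Members with an unadjusted p under 0.05 numbered 1 with limma on log2(FPKM + 1), which was COG3, where 2.46% of tested genes had one. COG3 was also the 1 member on log2(FPKM + 0.1), for which the share of all genes was not computed. Members with separated groups numbered 1 with a mean of at least 50 counts, for which the share of all genes was not computed. They numbered 4 to 9 with a library left out, where 60.2% to 67.4% of all genes were separated. All genes past the threshold numbered 13 with the replicate block and 1 to 47 with a library left out, against 0. The replicate block called 0 members. Same-numbered libraries deviated together (r = 0.372 across genes), but the labels give no shared source and there are only 2 pairs, so that they were not treated as pairs.

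Of 120 values of single members, 109 kept their direction and 11 reversed, in 8 members. Most alternatives used the same 4 libraries and reversed none, so that 109 of 120 overstates how far directions hold between libraries. Every reversal came with 1 library left out. The ranges then were -0.13 to 0.086 for BLCAP, -0.16 to 0.24 for COPA, -0.036 to 0.36 for COG3, -0.29 to 0.96 for NEIL1, -0.034 to 0.055 for CYFIP2, -0.11 to 0.19 for FLNA, -0.32 to 0.0020 for CCNI and -0.27 to 0.18 for CDK13. AZIN1, CTSS and ADAR, whose groups were separated in CPM, stayed below 0 in every alternative. With a library left out, the separation largely fixes this sign in advance, so that it adds no support. The spread is estimated from 2 libraries per group, and how depth bears on the precision was not tested.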
